A study of Mus musculus with 9 samples.

Results

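Transcripts of 10 genes of major histocompatibility complex (MHC) class I presentation were followed in sorted intestinal stem cells of the mouse small intestine. The genes encode class I molecules (H2-K1, H2-D1, H2-T3 and their shared light chain B2m), the parts that bring them peptides (Tap1, Tap2, Tapbp) and the inducible subunits of the immunoproteasome (Psmb8, Psmb9, Psmb10). They were found by name, as the rows of the raw count table whose Ensembl identifier carries one of these symbols in GENCODE release M21. The rule used no measured value, but the set was proposed with earlier results of these data known. All 10 were found among the 57180 rows of the table, and all 10 passed the filter on low counts, with 13405 genes tested in all.

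The cells were Lgr5-GFP+ cells sorted by flow cytometry from mice that carried Lgr5-EGFP-CreERT2 together with Kansl1 f/f. The first allele places green fluorescent protein and a tamoxifen-dependent Cre recombinase under the control of Lgr5, a gene of crypt base stem cells, so that recombination is driven in the cells that express it. Kansl1 encodes a scaffold of the NSL complex, which carries the histone acetyltransferase KAT8. Every group carried both alleles. The control group, labelled KANSL1-WT, was given corn oil (3 libraries). The KANSL1-KO groups were given tamoxifen daily, for 3 days in KO day 3 (3 libraries) and for 4 days in KO day 4 (3 libraries). Control animals had no tamoxifen, so loss of Kansl1 and exposure to tamoxifen cannot be told apart, and neither can time and the number of doses between the KO groups. The labels gave no age, sex or strain, and left unsaid if replicates came from different animals. The tests therefore measure the spread between these libraries, which may be technical.

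Class I molecules display peptides from inside the cell to CD8+ T cells. Proteasomes cut cytosolic proteins into peptides, the TAP transporter moves the peptides into the endoplasmic reticulum, and tapasin (Tapbp) holds the transporter against an empty class I heavy chain paired with beta-2-microglobulin (B2m). Interferon-gamma induces most of these genes through factors that include IRF1 and the class I transactivator NLRC5, and it exchanges the catalytic subunits Psmb5, Psmb6 and Psmb7 of newly built proteasomes for Psmb8, Psmb9 and Psmb10. Intestinal epithelial cells carry class I at rest, and interferon from mucosal lymphocytes raises it.

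Of the 10 genes, 8 stand within the MHC region of chromosome 17 (GRCm38). H2-K1 is at 33996017 to 34000347 and H2-D1 at 35262730 to 35267499, with Tapbp (33915899 to 33929292) before the first and H2-T3 (36185572 to 36190287) after the second. Between H2-K1 and H2-D1 lies a cluster in which Psmb9 (34181987 to 34187764, minus strand), Tap1 (34187553 to 34197225, plus strand), Psmb8 (34197721 to 34201454) and Tap2 (34203527 to 34216321) follow each other. The remaining pair are B2m on chromosome 2 (122147686 to 122153083) and Psmb10 on chromosome 8 (105935735 to 105938444). Psmb9 and Tap1 overlap by 212 bases on opposite strands, and their RefSeq start sites are separated by 225 bases. The sources used here do not give the strand setting of the counting, so reads from that overlap cannot be assigned to one of the pair.

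The upstream sequence is shown for H2-K1 and B2m, whose windows held no GENCODE exon (H2-K1) or only at the last base (B2m). These genes also moved together across the groups, as H2-D1 did, and a shared cause was not tested. The sequences are the last 200 bases before the transcription start in RefSeq (GRCm38.p6), H2-K1 on the minus strand at chr17:34000348-34000547 and B2m on the plus strand at chr2:122147487-122147686. Capitals mark matches on either strand to AANNGAAA, the core bound by interferon regulatory factors, and to GGGNNTTCC, a kappa B motif.
H2-K1: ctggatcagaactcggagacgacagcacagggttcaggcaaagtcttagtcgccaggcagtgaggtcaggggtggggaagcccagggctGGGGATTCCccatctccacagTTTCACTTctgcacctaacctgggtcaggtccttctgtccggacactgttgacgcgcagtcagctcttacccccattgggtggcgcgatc
B2m: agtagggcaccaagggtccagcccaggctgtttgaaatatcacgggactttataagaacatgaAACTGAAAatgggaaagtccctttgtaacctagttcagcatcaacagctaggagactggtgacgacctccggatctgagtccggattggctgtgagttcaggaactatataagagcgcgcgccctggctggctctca

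In the classical heavy chain genes the motifs stand in a shared stretch of 30 bases, printed below for H2-K1 (chr17:34000429-34000458, minus strand) and H2-D1 (chr17:35262923-35262952, plus strand), with the same capitals.
H2-K1 stretch: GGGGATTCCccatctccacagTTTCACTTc
H2-D1 stretch: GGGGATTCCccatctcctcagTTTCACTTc
Counted from 1 at the 5′ end, the stretches differ by 1 substitution from H2-K1 to H2-D1, A18T. The kappa B match began 111 bases before the start of H2-K1 and 171 bases before that of H2-D1 in RefSeq. GENCODE starts the gene span of H2-D1 earlier, at 35262730, so that the H2-D1 stretch lies within it.

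Promoter windows from RefSeq were used for 9 of the 10 genes, without Tap2. GENCODE places exons of its transcripts within each of these windows but that of H2-K1, and in that of B2m the exon covers only the last base. Over the 250 bases before the start and on both strands, AANNGAAA was found in 4 of 9 (H2-K1, H2-D1, H2-T3 and B2m), and in 21.3% of all 32851 mouse promoter windows of that length. The longer GAANNGAAA, which contains the first motif, was found in H2-K1 and H2-D1 and in 6.31% of all windows. Other spellings of the interferon-stimulated element were not searched, so the remaining windows, that of B2m among them, are not shown to lack it. GGGNNTTCC was found in H2-K1 and H2-D1 and in 4.98% of all windows. TTCNNNGAA, the gamma-activated site, was found in Psmb8 and in 7.02% of all windows. TGACG, a core of cyclic AMP response elements, was found in 5 of 9 and in 17.8% of all windows, and CCAAT in 6 of 9 and 33.9%. A match describes the letters and is not a measured binding site.

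Libraries held 8400458 to 21484679 counts, of which mitochondrial genes took between 16.4% and 25.8% in the control group, between 18.96% and 32.4% in KO day 3 and between 66.9% and 72.1% in KO day 4. Levels below are CPM, counts scaled to a common library size after correction by the trimmed mean of M-values (TMM), unless said otherwise. The epithelial markers Epcam, Cdh1, Krt8 and 4 others, and the stem cell markers Lgr5, Olfm4 and 8 others, had counts in every library. Kansl1 had 4.46, 11.4 and 9.84 CPM in the control replicates, 2.81, 2.99 and 2.55 CPM in KO day 3 and 2.93, 5.09 and 8.96 CPM in KO day 4, of which replicates 2 and 3 lay within the control range. Its log2 difference from control was -1.62 ± 0.45 at KO day 3 (SE; adjusted p = 0.12 in edgeR's quasi-likelihood test) and -0.63 ± 0.46 at KO day 4 (adjusted p = 0.34). Its count covers the whole gene, so it does not check the deleted part. KO day 3 replicate 1 and KO day 4 replicate 3 stood apart from the other libraries of their groups, with Pearson correlations of log2 CPM across 13405 genes of 0.946 to 0.95 and 0.913 to 0.919, against 0.981 and 0.96 between the other 2 libraries. Results without them are given where they differ.

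**Figure D1:**
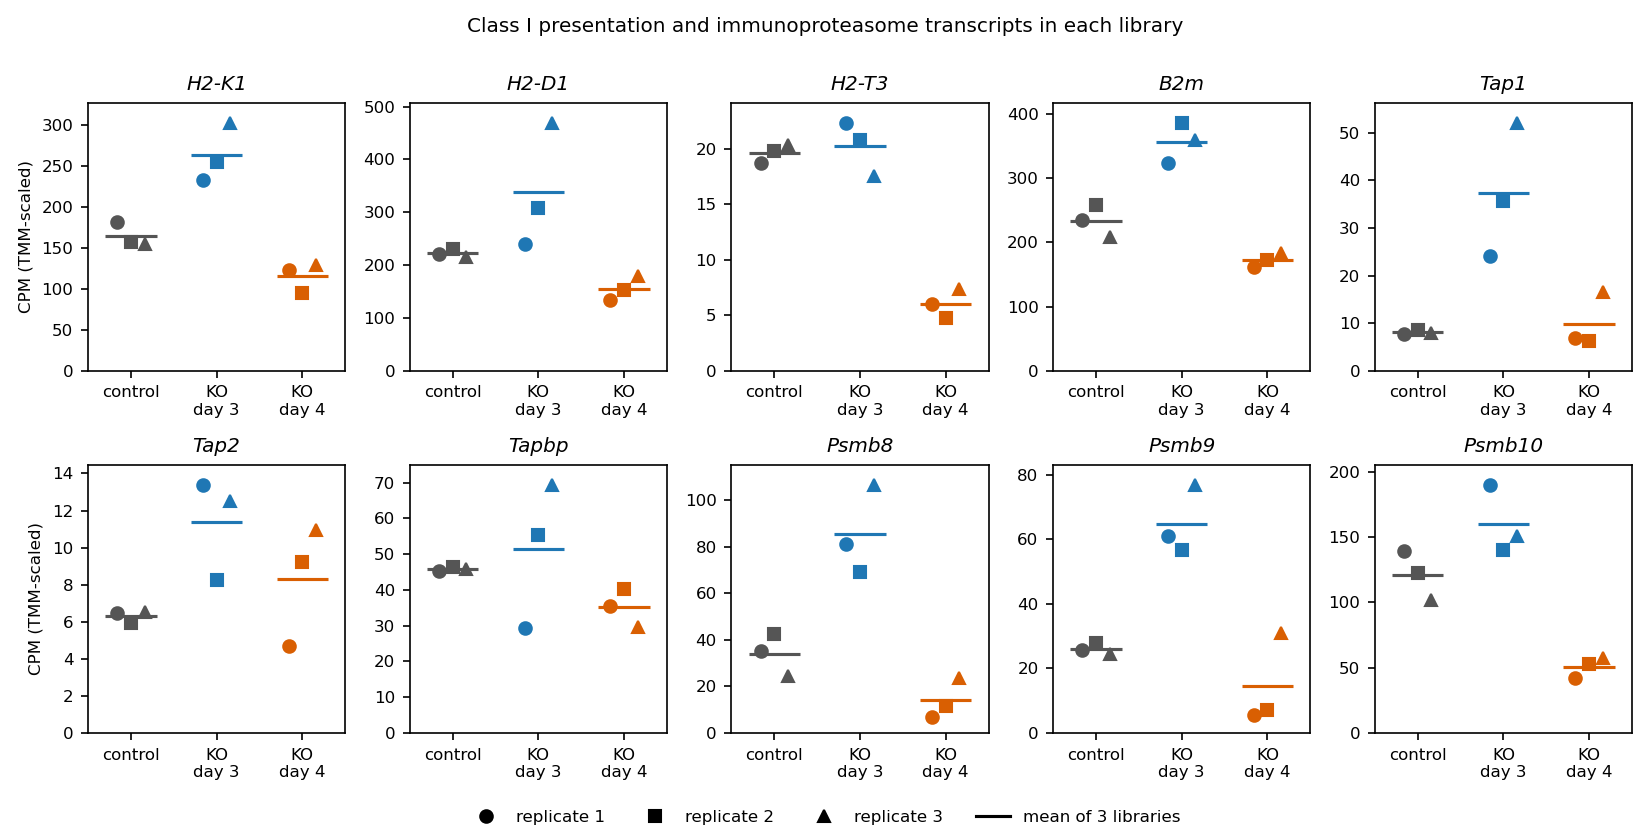
Level of each gene in each library, in TMM-scaled CPM on linear axes that start at 0. Symbols are the 3 libraries of a group and horizontal lines their means. In 8 of the 10 panels every KO day 3 library lies above every control library, and H2-T3 and Tapbp are the exceptions. In 7 of the 10 panels every KO day 4 library lies below every control library.

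In control stem cells B2m was the most abundant of the 10 transcripts per length. It stood at 272 ± 29 CPM per kilobase of exon (SD, n = 3), followed by H2-D1 at 86.5 ± 2.9, Psmb10 at 71.1 ± 11 and H2-K1 at 56.0 ± 5.0. Tapbp (12.6 ± 0.18), Psmb8 (10.1 ± 2.7), H2-T3 (7.19 ± 0.30) and Psmb9 (7.11 ± 0.50) formed a middle group, in CPM per kilobase. The transporter genes were lowest, at 1.67 ± 0.089 for Tap2 and 1.50 ± 0.081 CPM per kilobase for Tap1. Control ranges of neighbours in this order overlapped for Psmb10 and H2-K1, Tapbp and Psmb8, Psmb8 and H2-T3, H2-T3 and Psmb9, and Tap2 and Tap1, while the other neighbours were apart. B2m and H2-D1 were first and second in each group. Tap1 passed Tap2 at KO day 3, with 6.81 ± 2.6 against 3.01 ± 0.73 CPM per kilobase, and was last again at KO day 4, with 1.81 ± 1.1 against 2.19 ± 0.86.

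The class I heavy chains H2-K1 and H2-D1 and their light chain B2m stood higher at KO day 3 than in controls in every library, and lower at KO day 4. H2-K1, one of the classical heavy chains that present peptide to CD8+ T cells, measured 181, 157 and 155 CPM in control replicates 1, 2 and 3. It measured 233, 255 and 303 CPM in the KO day 3 replicates and 123, 95.6 and 129 CPM in the KO day 4 replicates. The 3 groups did not overlap. The difference of KO day 3 from control was 0.68 ± 0.17 on the log2 scale (SE, here and for all log2 differences below; adjusted p = 0.092), which did not pass the threshold of 0.05 in edgeR's quasi-likelihood test with Benjamini-Hochberg adjustment over all genes tested. H2-K1 fell by 0.51 ± 0.17 at KO day 4 against control (adjusted p = 0.048, and over the threshold under 8 of 19 alternatives), to 0.705 of the control level.

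H2-D1, the other classical heavy chain, measured 222, 231 and 216 CPM in controls, 239, 307 and 470 CPM at KO day 3, and 134, 153 and 179 CPM at KO day 4. The groups did not overlap, and KO day 3 replicate 3 was the highest of the 9 libraries. The log2 differences from control were 0.60 ± 0.22 at KO day 3 (adjusted p = 0.22) and -0.53 ± 0.22 at KO day 4 (adjusted p = 0.11). Without KO day 3 replicate 3 the H2-D1 difference at KO day 3 was 0.29 (adjusted p = 0.55). In all, 14.3% of the 50-base words of the H2-D1 transcript also occur in other genes, most in H2-Q1, against 8.11% for H2-K1 and at most 2.00% for the other members. Class I heavy chain genes also differ between mouse strains, so that single values of H2-K1 and H2-D1 depend on how reads were assigned.

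B2m, the invariant light chain without which classical heavy chains do not reach the surface, measured 235, 259 and 208 CPM in controls. It measured 324, 386 and 359 CPM at KO day 3 and 162, 173 and 184 CPM at KO day 4, again without overlap. The log2 difference was 0.61 ± 0.14 at KO day 3 (adjusted p = 0.090) and -0.44 ± 0.14 at KO day 4, just outside the threshold (adjusted p = 0.0504). Patl2, a gene that spans B2m on the other strand, had 0 counts in every library.

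Set against B2m within each library, the classical heavy chains showed no separation of the groups. H2-K1 and H2-D1 together had 172, 150 and 178 counts per 100 of B2m in controls, 146, 146 and 216 at KO day 3, and 159, 144 and 167 at KO day 4. The groups overlapped, with a log2 difference of -0.0019 at KO day 3 (two-sided exact permutation p = 1) and -0.089 at KO day 4 (exact permutation p = 0.4).

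H2-T3 followed another course. It encodes the thymus leukemia antigen, a class I molecule of the intestinal epithelium that binds CD8 alpha homodimers of intraepithelial lymphocytes and needs no TAP for its expression. It measured 18.7, 19.8 and 20.3 CPM in controls and 22.3, 20.8 and 17.6 CPM at KO day 3, so that these groups overlapped. In the KO day 4 replicates it measured 5.98, 4.77 and 7.39 CPM, below each library of both other groups. The log2 difference from control was 0.04 ± 0.21 at KO day 3 (adjusted p = 0.96), and its sign turned without KO day 3 replicate 1 (-0.03). H2-T3 fell by 1.71 ± 0.23 at KO day 4 (adjusted p = 0.00092), a 3.27-fold lower level, and this was the lowest adjusted p among the 10 genes in that comparison. Per 100 counts of B2m, H2-T3 had 7.97, 7.66 and 9.80 counts in controls, 6.91, 5.38 and 4.91 at KO day 3, and 3.73, 2.81 and 4.08 at KO day 4. That ratio differed from control by -0.57 and -1.27 on the log2 scale, without overlap of any of the 3 groups (exact permutation p = 0.1 for each, the smallest that 3 against 3 libraries allow).

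Peptide transport showed the one gene called at KO day 3. Tap1, a subunit of the TAP transporter, measured 7.84, 8.69 and 8.04 CPM in controls and 24.1, 35.6 and 52.1 CPM at KO day 3. The KO day 4 replicates had 6.92, 6.20 and 16.6 CPM. All KO day 3 libraries stood above all others, and KO day 4 replicate 3 stood above the controls while replicates 1 and 2 stood below them. Tap1 rose by 2.19 ± 0.37 at KO day 3 (adjusted p = 0.036), a 4.56-fold higher level, and by KO day 4 the difference from control was 0.24 ± 0.38 (adjusted p = 0.68), or -0.32 without KO day 4 replicate 3. The call at KO day 3 was lost, with the log2 difference between 1.87 and 2.24, when any of 5 libraries was left out. Adjusted p was 0.12, 0.18 and 0.15 without control replicates 1, 2 and 3, and 0.077 and 0.17 without KO day 3 replicates 2 and 3. It was also lost with the replicate number as a block in the fit, where 0 members were called.

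Tap2, the other subunit of the transporter, measured 6.48, 5.92 and 6.51 CPM in controls, 13.4, 8.24 and 12.5 CPM at KO day 3, and 4.69, 9.22 and 10.97 CPM at KO day 4. Its log2 differences from control were 0.85 ± 0.33 (adjusted p = 0.23) and 0.38 ± 0.34 (adjusted p = 0.45). Within libraries, Tap1 had 121, 147 and 123 counts per 100 of Tap2 in controls and 180, 432 and 416 at KO day 3, a log2 difference of 1.30 without overlap (exact permutation p = 0.1). The ratio was 147, 67.5 and 151 per 100 at KO day 4, which overlapped control.

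Tapbp (tapasin), the bridge between transporter and heavy chain, varied in direction within KO day 3. It measured 45.2, 46.5 and 45.8 CPM in controls, 29.4, 55.5 and 69.4 CPM at KO day 3, and 35.5, 40.4 and 29.6 CPM at KO day 4. KO day 3 replicate 1 lay below the controls and the other 2 libraries above them. No comparison called Tapbp, with log2 differences of 0.17 ± 0.26 (adjusted p = 0.82) and -0.38 ± 0.27 (adjusted p = 0.32) from control. Without KO day 3 replicate 1 it was called between the KO groups (-0.84, adjusted p = 0.021). Zbtb22 overlaps Tapbp by 3422 bases on the same strand, at 13.9 to 17.7 CPM in controls and 1.79 to 11.4 CPM at KO day 4.

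**Figure D2:**
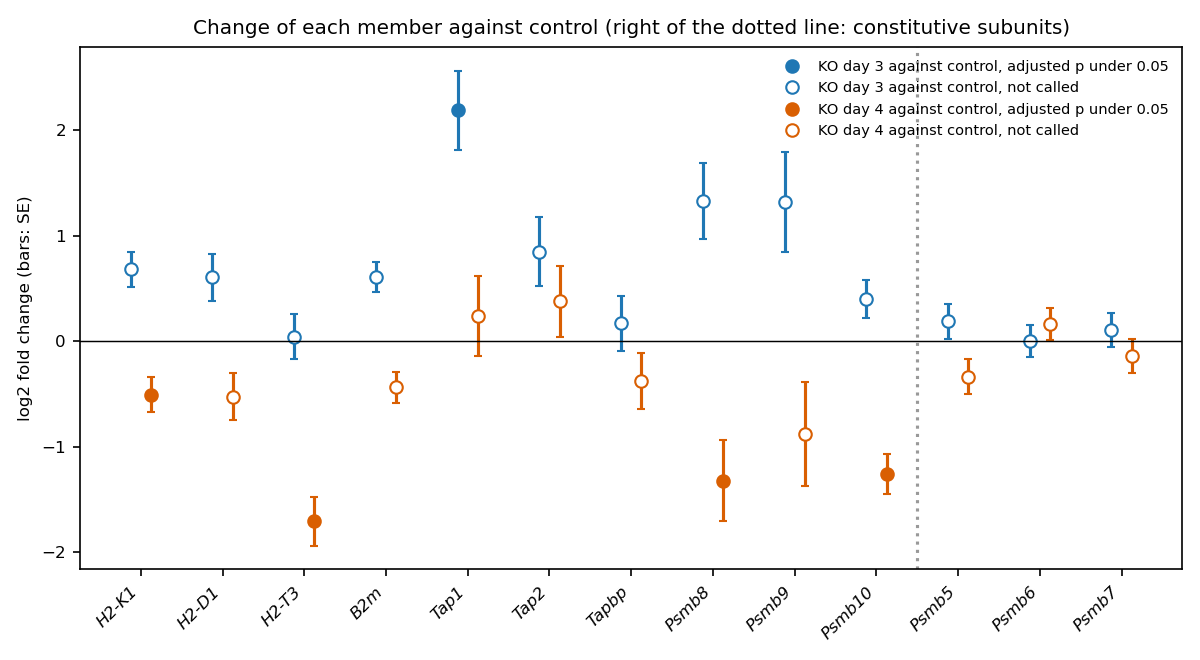
Log2 fold change of each gene against control at KO day 3 (blue) and KO day 4 (orange), with bars for the SE. Filled points have an adjusted p under 0.05. Only Tap1 is filled at KO day 3, and H2-K1, H2-T3, Psmb8 and Psmb10 are filled at KO day 4.

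The immunoproteasome subunits stood above control in every KO day 3 library, and Psmb8 and Psmb10 fell below it at KO day 4. Psmb8, which replaces Psmb5 as the chymotrypsin-like subunit, measured 35.4, 42.4 and 24.4 CPM in controls, 81.2, 69.1 and 107 CPM at KO day 3, and 6.80, 11.4 and 23.7 CPM at KO day 4. The 3 groups did not overlap, though the highest KO day 4 library lay just under the lowest control. The log2 difference at KO day 3 was 1.33 ± 0.36, a 2.51-fold higher level that did not pass the test (adjusted p = 0.11). Psmb8 fell by 1.32 ± 0.38 at KO day 4 (adjusted p = 0.030), a 2.50-fold lower level. That call was lost without control replicate 1 (adjusted p = 0.073) or 2 (0.10) and without KO day 4 replicate 1 (0.073) or 2 (0.097), and the difference was -1.92 without KO day 4 replicate 3 (adjusted p = 0.0048).

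Psmb9, which replaces Psmb6, measured 25.7, 28.0 and 24.4 CPM in controls and 61.0, 56.7 and 76.95 CPM at KO day 3. At KO day 4 replicates 1 and 2 measured 5.63 and 7.16 CPM and replicate 3 measured 31.1 CPM, above every control. The log2 differences were 1.32 ± 0.47 at KO day 3 (adjusted p = 0.21) and -0.88 ± 0.49 at KO day 4 (adjusted p = 0.22). Without KO day 4 replicate 3 the latter was -2.04 ± 0.22 (adjusted p = 0.0011). Psmb9 gained a call at KO day 4 under 4 of the 19 alternatives, among them library size alone, which left out no library and called all 10 members lower.

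Psmb10, which replaces Psmb7 as the trypsin-like subunit, measured 139, 123 and 102 CPM in controls, 190, 140 and 151 CPM at KO day 3, and 42.2, 52.6 and 57.8 CPM at KO day 4. Its log2 difference at KO day 3 was the smallest of the 3 subunits and did not pass the test (0.40 ± 0.18, adjusted p = 0.31). It fell by 1.26 ± 0.19 at KO day 4 (adjusted p = 0.0015), a 2.39-fold lower level, and it stayed called under each of the 19 alternatives run, as did H2-T3.

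None of the constitutive partners was called against control. Psmb5 had log2 differences of 0.19 ± 0.17 and -0.34 ± 0.17 from control at KO day 3 and KO day 4, Psmb6 of 0.00 ± 0.15 and 0.16 ± 0.15, and Psmb7 of 0.10 ± 0.16 and -0.14 ± 0.16. Within each library, the ratio of an inducible subunit to its partner is free of the scaling between libraries. It is a ratio of counts, so that its change and not its height can be read. Psmb8 had 38.3, 45.6 and 24.5 counts per 100 of Psmb5 in controls, 60.3, 77.4 and 106 at KO day 3, and 8.62, 15.4 and 33.3 at KO day 4. Psmb9 had 15.4, 19.1 and 18.7 counts per 100 of Psmb6 in controls, 36.3, 40.7 and 55.3 at KO day 3, and 3.74, 4.04 and 18.6 at KO day 4. Psmb10 had 113, 96.6 and 79.0 counts per 100 of Psmb7 in controls, 121, 127 and 108 at KO day 3, and 33.6, 45.3 and 56.8 at KO day 4.

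Averaged over the 3 pairs, the log2 ratio was -1.36 ± 0.21 in controls (SD, n = 3), -0.43 ± 0.21 at KO day 3 and -2.57 ± 0.87 at KO day 4. Groups did not overlap, and the differences from control were 0.93 and -1.21, with -2.14 between the KO groups (two-sided exact permutation p = 0.1 for each, the smallest that 3 against 3 libraries allow, and 0.15 after Benjamini-Hochberg adjustment over 21 ratio comparisons). The mean difference of each single pair had the same sign, but Psmb10 against Psmb7 overlapped control at KO day 3, and Psmb8 against Psmb5 and Psmb9 against Psmb6 overlapped it at KO day 4 through replicate 3 (exact permutation p = 0.2 for each). Without KO day 3 replicate 1 and KO day 4 replicate 3, the differences of the averaged ratio from control were 1.03 and -1.69.

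**Figure D3:**
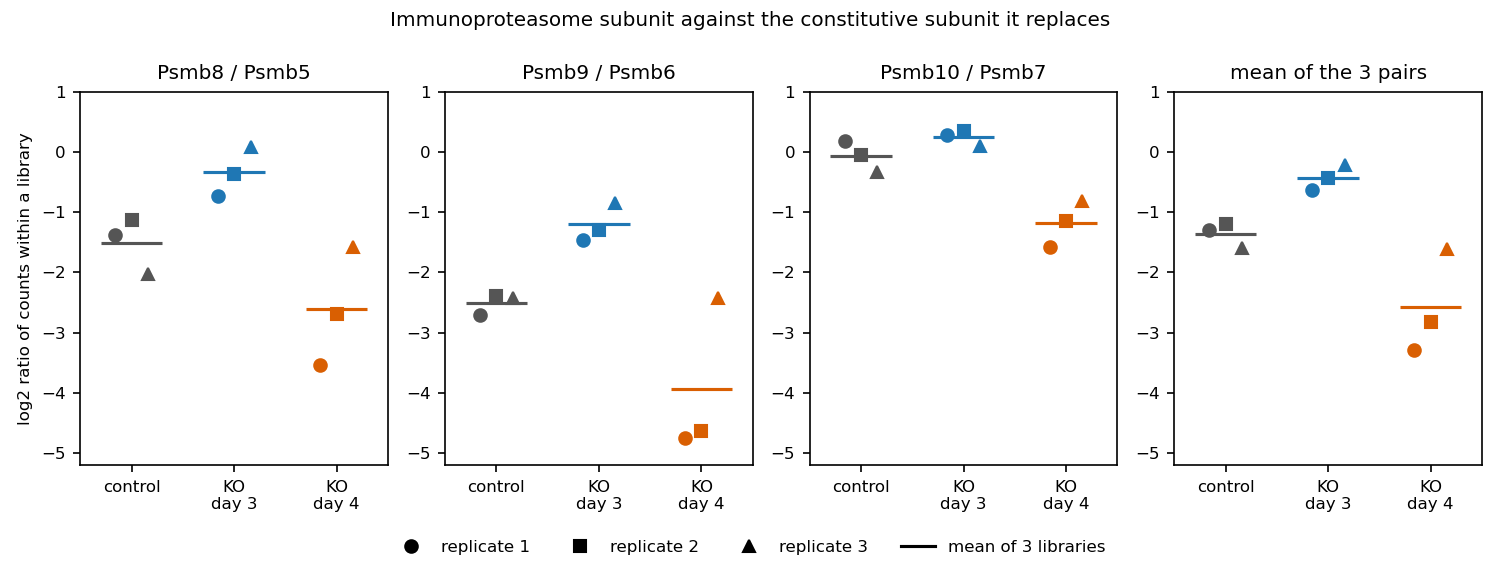
Log2 ratio of the counts of each immunoproteasome subunit to the constitutive subunit it replaces, within each library, and the mean of the 3 pairs. Symbols are libraries and lines are group means. In the mean of the pairs the KO day 3 libraries lie between -0.64 and -0.22, the controls between -1.60 and -1.19 and the KO day 4 libraries between -3.28 and -1.61.

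Counted over the 10 genes, edgeR called 1 higher and 0 lower at KO day 3 against control, where 0.142% of all genes tested were called higher and 0.298% lower. At an unadjusted p under 0.05 there were 8 higher and 0 lower, and with adjustment DESeq2 called 4 higher and limma voom 6. The share of 0.142% belongs to edgeR's adjusted test alone, which called 59 genes in either direction. Voom called 1442 of all genes in either direction, so that share is no measure for its 6. Nor is it one for the 4 of DESeq2 or the 8 at an unadjusted p, whose shares over all genes by direction are not given. The same holds for such counts in the lists below. For KO day 4 against control 0 were called higher (0 also at an unadjusted p under 0.05, in DESeq2 and in voom) and 4 lower, where the shares were 11.1% and 11.5% of all genes. Every KO day 3 library lay above every control library for 8 of 10 genes, against 12.1% of all genes tested. Every KO day 4 library lay below every control library for 7 of 10, against 26.4% of all genes. The median log2 difference of the 10 genes from control was 0.64 at KO day 3 and -0.52 at KO day 4, and that of all genes tested was -0.017 and -0.063. Without KO day 3 replicate 1 and KO day 4 replicate 3, 6 genes were called higher at KO day 3 (H2-K1, H2-D1, B2m, Tap1, Psmb8 and Psmb9) and 7 lower at KO day 4. The shares of all genes called by direction in that fit are not given, here or for the lists below, so these counts have no measure beside them. Single libraries of the group outside a comparison also bore on calls, through the shared estimate of spread. Psmb8 and Psmb9 were called at KO day 3 without KO day 4 replicate 3 (adjusted p = 0.036 and 0.012), B2m and H2-D1 at KO day 4 without KO day 3 replicate 1 (0.029 and 0.045), and H2-D1 there without KO day 3 replicate 3 (0.039). Both comparisons share the control libraries.

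Between KO day 3 and KO day 4, 8 of the 10 genes fell and 0 rose (0 also at an unadjusted p under 0.05, in DESeq2 and in voom), where 6.03% of all genes tested were called lower and 6.52% higher. Psmb8 fell by 2.65 ± 0.39 on the log2 scale (adjusted p = 0.0039), Psmb9 by 2.20 ± 0.50 (0.019), Tap1 by 1.95 ± 0.38 (0.011), H2-T3 by 1.75 ± 0.23 (0.0024) and Psmb10 by 1.66 ± 0.19 (0.0014). H2-K1 fell by 1.19 ± 0.17 (adjusted p = 0.0032), H2-D1 by 1.13 ± 0.23 (0.011) and B2m by 1.04 ± 0.15 (0.0031). Tap2 (-0.47 ± 0.34, adjusted p = 0.38) and Tapbp (-0.55 ± 0.27, adjusted p = 0.19) were not called. Every KO day 4 library lay below every KO day 3 library for the 8 called genes, against 17.0% of all genes. Between 7 and 10 members were called lower under the 19 alternatives run. Psmb9 lost its call without KO day 4 replicate 2 (-1.88, adjusted p = 0.066), and its log2 difference stood at -3.36 without KO day 4 replicate 3.

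Other class I genes included the nonclassical Qa and TL region genes and class I-like molecules with other tasks. Of 16 on the list 11 were tested, and 0 were called at KO day 3 in edgeR (median log2 difference 0.16; 1 higher and 1 lower at an unadjusted p under 0.05, 0 in DESeq2 and 1 higher in voom). By KO day 4, 5 had fallen against control, beside 11.5% of all genes tested, with a median of -1.34 over the 11. Fcgrt, the heavy chain of the neonatal Fc receptor, fell by 2.46 ± 0.53 (adjusted p = 0.0078), from 20.4, 18.4 and 11.9 CPM in controls to 5.04, 3.18 and 0.448 CPM. Hfe, a class I-like regulator of iron uptake, fell by 3.35 ± 0.96 (adjusted p = 0.029), and 2 of the 3 KO day 4 libraries had 0 counts of it. H2-Q4 fell by 1.41 ± 0.42 (adjusted p = 0.033), H2-M3, which presents formylated peptides, by 2.93 ± 0.87 (0.034) and H2-Q2, which was named after its value was seen, by 0.80 ± 0.26 (0.045). Across alternatives the adjusted p of Hfe, H2-Q4, H2-M3 and H2-Q2 ranged up to 0.12, and that of Fcgrt up to 0.030. H2-Q genes are close relatives of each other, so their single values are uncertain.

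Among 11 tested genes of peptide loading and trimming, 0 were called at KO day 3 in edgeR (median 0.37). There were 5 higher at an unadjusted p under 0.05, 3 in DESeq2 and 5 in voom. At KO day 4, 2 fell, beside 11.5% of all genes tested, while 9 did not pass the test (median 0.18). Tapbpl, a tapasin relative that edits the peptides class I carries, stood at 15.2, 14.1 and 13.1 CPM in controls and 6.45, 5.72 and 8.73 CPM at KO day 4, and fell by 1.04 ± 0.25 (adjusted p = 0.015). Erap1, the peptidase that trims peptides inside the endoplasmic reticulum, stood at 81.8, 82.3 and 80.3 CPM in controls and 57.0, 39.1 and 27.3 CPM at KO day 4, and fell by 0.98 ± 0.26 (adjusted p = 0.020). The cytosolic peptidases Ide and Nrd1 had values of the other sign that did not pass the test (0.51 ± 0.17 and 0.54 ± 0.20, adjusted p = 0.051 and 0.072). Between the KO groups 4 of the 11 fell, beside 6.03% of all genes tested. The general folding factors Calr and Pdia3 were among them (-0.58 ± 0.15 and -0.70 ± 0.14), named after their values were seen.

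Of the 4 proteasome activators, edgeR called Psme2 lower at KO day 4 and not the other 3, beside 11.5% of all genes tested. There DESeq2 called 1 higher and 1 lower and voom 1 higher and 2 lower. Without KO day 3 replicate 1 and KO day 4 replicate 3, edgeR called 2 higher and 2 lower. Psme1 and Psme2 form the PA28 cap that is induced along with the immunoproteasome. Psme2 fell by 0.59 ± 0.19 (adjusted p = 0.041, over the threshold under 7 of 19 alternatives and up to 0.13), from 58.4, 58.0 and 46.3 CPM to 38.4, 39.1 and 30.0 CPM, and Psme1 had -0.56 ± 0.23 (adjusted p = 0.11). Psme3 and Psme4, nuclear activators, had 0.51 ± 0.19 and 0.33 ± 0.18, not called (adjusted p = 0.078 and 0.21). Between the KO groups Psme2 fell by 1.14 ± 0.19 (adjusted p = 0.0055) and Psme1 by 0.95 ± 0.24 (adjusted p = 0.026). Of all genes tested, 6.03% were called lower there. None of the 4 was called at KO day 3 (median 0.31; 1 higher at an unadjusted p under 0.05, 0 in DESeq2 and in voom).

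The remaining proteasome genes were described by their counts. Of 14 constitutive core (20S) subunits edgeR called 0 in each of the 3 comparisons, with medians of 0.37 at KO day 3 and 0.10 at KO day 4 against control and -0.27 between the KO groups. At an unadjusted p under 0.05, 9 were higher at KO day 3, 1 was higher at KO day 4 and 5 were lower between the KO groups. DESeq2 called 3 higher, 0 and 2 lower in these comparisons, and voom 3 higher, 1 higher and 0. Psma5, an outer ring subunit, had the smallest adjusted p of them at KO day 4 (0.34 ± 0.15, adjusted p = 0.14). Of 21 genes listed for the 19S regulatory particle, which include assembly chaperones such as Psmd9, 0 were called at KO day 3 in edgeR. There were 6 higher and 1 lower at an unadjusted p under 0.05, 1 and 1 in DESeq2, and 0 and 2 in voom. At KO day 4, 6 rose and 3 fell, beside 11.1% and 11.5% of all genes tested, with a median of 0.36, and each of the 6 turned negative when libraries were scaled by their size alone. Adrm1, a ubiquitin receptor, rose by 1.14 ± 0.19 (adjusted p = 0.0024), and the ATPases Psmc2 and Psmc1 by 0.79 ± 0.16 (0.0070) and 0.73 ± 0.15 (0.0075), while the assembly chaperone Psmd9 fell by 1.55 ± 0.34 (0.0083). The assembly chaperones Psmg2 and Psmg3 fell at KO day 4 by 1.40 ± 0.23 (adjusted p = 0.0023) and 1.24 ± 0.24 (0.0052). EdgeR called none of the other 4 of 6 assembly genes, and 11.5% of all genes tested were called lower. In all, DESeq2 and voom each called 3 of the 6 lower.

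Of 18 tested genes of interferon signalling to class I, edgeR called 0 higher and 1 lower, Tyk2, at KO day 3. The shares of all genes tested were 0.142% and 0.298%. The median log2 difference of the list was -0.05, with 7 genes above 0 and 11 below. At an unadjusted p under 0.05, 4 were higher and 3 lower, and DESeq2 called 2 higher and 1 lower and voom 2 higher and 3 lower. Tyk2, a kinase of the type I interferon receptor, stood at 11.8, 12.5 and 14.6 CPM in controls and 3.75, 2.04 and 3.51 CPM at KO day 3, a fall of 2.07 ± 0.36 (adjusted p = 0.036, up to 0.18 across alternatives). At KO day 4 edgeR called 1 of the 18 higher and 0 lower, beside 11.1% and 11.5% of all genes tested. Jak1 rose there by 0.69 ± 0.22 (adjusted p = 0.047, up to 0.15 across alternatives, and negative with scaling by library size alone).

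Irf1 and Nlrc5 were chosen after their values were seen, as direct activators of class I transcription. At KO day 3 both lay above the median of their list, -0.05. Irf1, the transcription factor that acts on the interferon-stimulated element of class I genes, stood at 14.3 CPM in each control. It stood at 59.0, 25.5 and 45.5 CPM at KO day 3 and 19.8, 7.79 and 32.2 CPM at KO day 4, with log2 differences of 1.60 ± 0.42 (adjusted p = 0.10) and 0.47 ± 0.42 (adjusted p = 0.45). Nlrc5 was near the limit of detection, with 3, 21 and 4 counts in the control replicates, 20, 17 and 44 counts in KO day 3 and 4, 10 and 10 counts in KO day 4. These counts are not scaled for depth, and the mean levels were 0.33, 1.33 and 1.43 CPM in the same order of groups. Its log2 difference from control was 1.96 ± 0.86 at KO day 3 (adjusted p = 0.30). At KO day 4 it was 2.03 ± 0.90 (adjusted p = 0.13), with overlap of the groups, so that Nlrc5 did not share the fall of Irf1 between the KO groups. Rfx5, Rfxank and Rfxap, of the same list, were also named after their values were seen. Their log2 differences at KO day 3 were -0.07 ± 0.87, -1.61 ± 0.60 and -0.01 ± 0.24, not called by edgeR (adjusted p = 0.98, 0.23 and 0.99). Ifng did not pass the filter on low counts.

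MHC class II genes serve presentation to CD4+ T cells and answer to interferon through Ciita. All 7 lay above every control library at KO day 3, against 12.1% of all genes tested. Their median log2 difference was 2.02, but 0 passed edgeR's test (7 at an unadjusted p under 0.05, 1 in DESeq2 and 7 in voom). Against control 0 passed at KO day 4 (median -0.72; 1 lower at an unadjusted p under 0.05, 0 in DESeq2 and in voom). H2-Aa stood at 35.4, 64.4 and 11.2 CPM in controls, 149, 254 and 360 CPM at KO day 3 and 5.27, 8.43 and 56.2 CPM at KO day 4. Between the KO groups 3 of 7 fell, beside 6.03% of all genes tested. The log2 differences were -3.12 ± 0.59 for H2-DMa (adjusted p = 0.0094), -3.50 ± 0.84 for H2-Aa (adjusted p = 0.024) and -2.84 ± 0.80 for H2-Ab1 (adjusted p = 0.040). Without KO day 3 replicate 1 and KO day 4 replicate 3, 5 were called higher at KO day 3, 6 lower at KO day 4 and 7 lower between the KO groups.

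**Figure D4:**
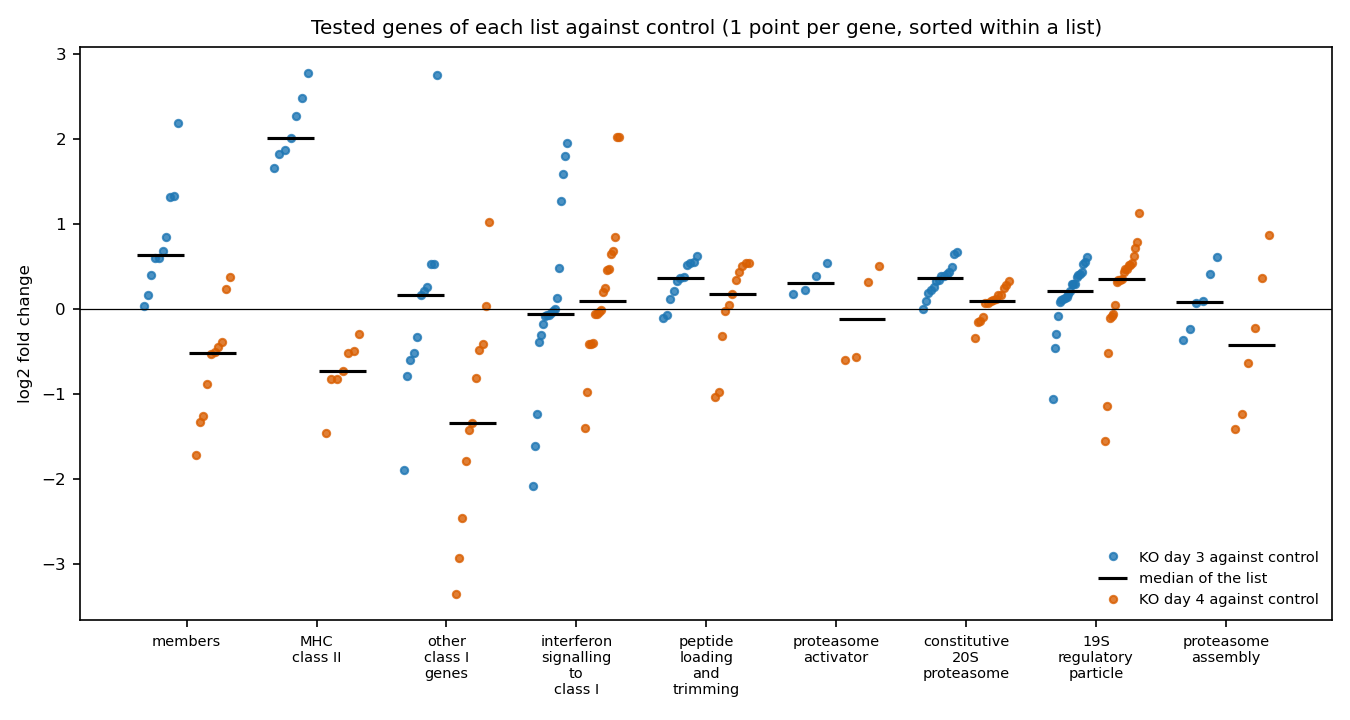
Log2 fold change against control of each tested gene, by list, at KO day 3 (blue) and KO day 4 (orange), with a black bar at the median. Both times share the same 3 control libraries. Medians at KO day 3 and KO day 4 are 0.64 and -0.52 for the 10 genes of class I presentation, 2.02 and -0.72 for MHC class II, and 0.37 and 0.10 for the constitutive core subunits.

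The 5 genes outside these lists whose levels lay nearest to the median course of the 10 over the 9 libraries were Usmg5, Arl6ip1, Tmem97, Mcm6 and Hsp90b1. Their root mean square difference from it was 0.21 to 0.25 on the log2 scale, the smallest among 8010 genes. Usmg5, a small subunit of the mitochondrial ATP synthase, had 35.4, 34.9 and 32.9 CPM in controls, 65.8, 49.3 and 48.1 CPM in KO day 3 and 24.5, 19.7 and 23.3 CPM in KO day 4. Hsp90b1, a chaperone of the endoplasmic reticulum, had 203, 203 and 212 CPM in controls, 317, 293 and 320 CPM in KO day 3 and 178, 184 and 141 CPM in KO day 4.

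Markers of other cell types also differed between the groups, and class I transcripts are made by nearly all nucleated cells. In bulk libraries fewer cells of a type and less RNA per cell cannot be told apart. Summed over 10 mast cell markers, levels were at most 0.233 CPM in a control library, 112, 12.1 and 31.9 CPM at KO day 3 and 297, 558 and 886 CPM at KO day 4. Of these 10, 9 had a count in each KO group, and Tpsab1 was at 0 at KO day 3 and Mcpt1 at KO day 4.

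Summed markers of T and NK lymphocytes were 0.135 to 0.427 CPM in controls, 9.38, 1.17 and 3.22 CPM at KO day 3 and 18.3, 41.0 and 60.0 CPM at KO day 4. Most of the counts in the KO groups came from Gzmb and Ptprc. The defining Cd3d, Cd3e and Cd3g had 0 counts in controls, 0 to 6 counts at KO day 3 and 0 at KO day 4, and Cd8b1 was at 0 in every library. Myeloid markers (11) summed to 1.98 to 4.43 CPM in controls, 17.3, 4.12 and 3.62 CPM at KO day 3 and 30.7, 22.9 and 62.9 CPM at KO day 4, and B cell markers to at most 1.64 CPM in any library. Stromal and endothelial markers reached 17.02 CPM in KO day 4 replicate 3, with Pdgfra and Cdh5 at 0 throughout. Pecam1 alone gave 68 of their 76 counts in that library. Pdgfrb, the marker of that list with the most counts in controls (36, 22 and 25), had 0, 7 and 0 counts at KO day 4. Of the 281 myeloid counts in KO day 4 replicate 3, Lyz2 gave 178, followed by Adgre1 with 24. In KO day 4 replicate 3 each of the 10 genes but Tapbp was the highest of its group. That library also had the highest mast cell, lymphocyte, myeloid and stromal sums of the 9 libraries. KO day 3 replicate 1 had the highest mast cell, lymphocyte and myeloid sums of its own group. In it H2-K1, H2-D1, B2m, Tap1 and Tapbp were the lowest of the group, and H2-T3, Tap2 and Psmb10 the highest. Psmb8 and Psmb9 lay between the other libraries.

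Within the epithelium, summed stem cell markers (10) lay between 9825 and 10280 CPM in the control group, between 7453 and 10230 CPM in KO day 3 and between 1976 and 5063 CPM in KO day 4. Paneth cell markers (5) lay between 4073 and 11040, between 7367 and 11900, and between 36430 and 49430 CPM in the same order of groups. Tuft cell markers (5) lay between 3.07 and 3.96, between 6.29 and 12.9, and between 71.0 and 204 CPM, and epithelial markers (7) between 3572 and 3922, between 3641 and 4269, and between 4532 and 4696 CPM. The part of these differences in makeup in the levels of the class I genes was not tested.

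**Figure D5:**
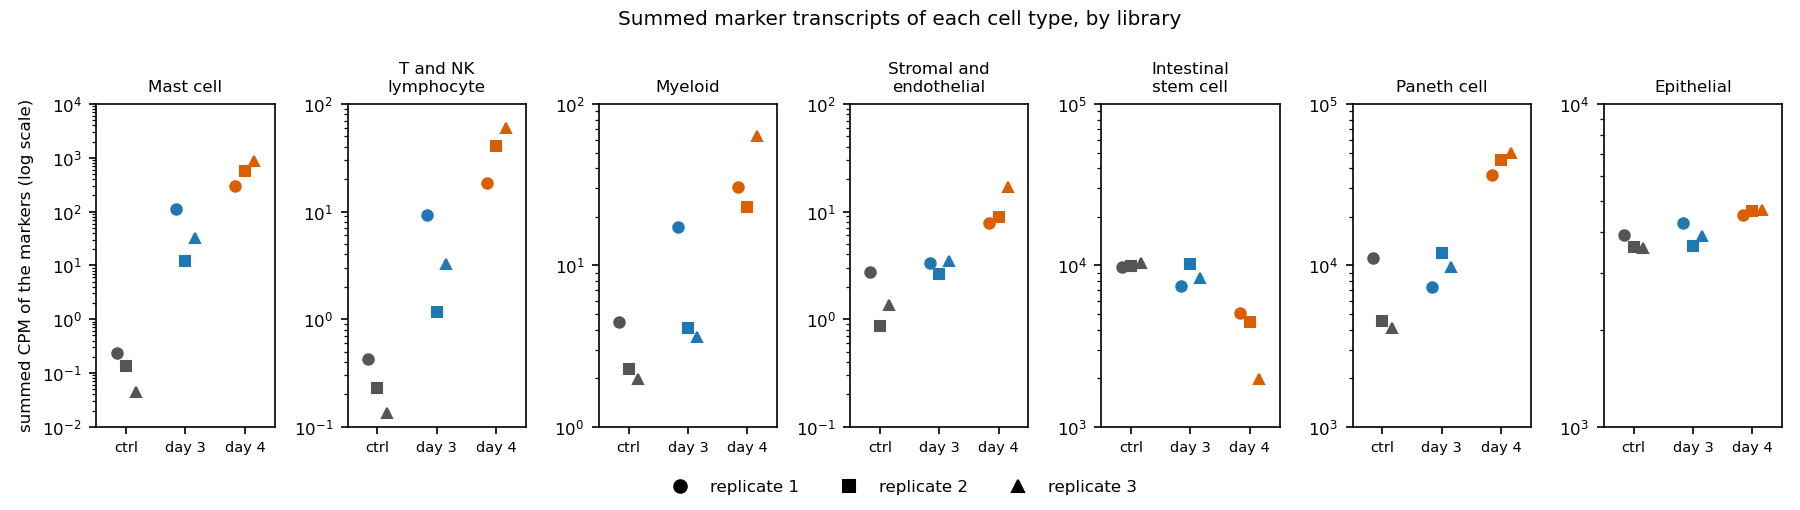
Summed CPM of the marker genes of 7 cell types in each library, on log axes that differ between panels. Symbols are the 3 libraries of a group. Mast cell markers lie at or under 0.233 CPM in controls and at 297 to 886 CPM at KO day 4, and stem cell markers lie at or above 9825 CPM in controls and at or under 5063 CPM at KO day 4.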

How the data were processed

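Messenger RNA of 9 libraries (3 control, 3 KO day 3, 3 KO day 4) was sequenced. The file the authors deposited holds raw counts, 1 row per Ensembl gene and 1 column per library. HISAT2 2.0.4 and GRCm38 were used, per the submitters' processing notes; the sources used here do not give the counting tool, its strand setting or annotation. GENCODE M21 named 51933 of 57180 rows. Groups and replicates came from the titles, and columns were matched by the library names in the descriptions. The set of members was found by name, and it, the lists, markers and alternatives were chosen with earlier results of these data known.

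Counts were tested with edgeR 4.0.16 in R 4.3.3: filterByExpr (10 counts in a library, 15 in all), TMM factors (1.44 to 1.83 in controls, 1.22 to 1.40 at KO day 3, 0.40 to 0.50 at KO day 4), all 9 libraries in 1 quasi-likelihood fit so that groups share the estimate of spread, and Benjamini-Hochberg adjustment over 13405 genes at 0.05. The fit was tested on simulated data. Fold changes are log2 with SE. Ratios used counts plus 0.5 and two-sided exact permutation tests; of the 7 ratios, all but the mean of the 3 pairs and Psmb8 to Psmb5 were added after seeing the data. With 3 libraries per group no permutation p can be under 0.1.

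Named genes are the 10 members, Psmb5, Psmb6, Psmb7, Kansl1, Lgr5, up to 4 genes per list with the smallest adjusted p in KO day 4 against control, and the 5 nearest in course (mean CPM at least 5). Promoters are RefSeq's on GRCm38.p6. Alternatives were RLE and library-size scaling, nuclear genes alone, no filter or a mean CPM of at least 5, DESeq2 1.42.0, limma 3.58.1 voom with quality weights, a replicate block, 2 groups only, and leaving out libraries. The 6 empty columns of the table were not used.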

Additional observations from a re-analysis of the deposited data

Results flagged for a closer look

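For 8 of the 10 genes the effect at KO day 4 differed from that at KO day 3 against the same controls, by the direct test between the KO groups (edgeR's quasi-likelihood test, Benjamini-Hochberg adjusted p of 0.0014 to 0.019). The log2 differences, KO day 4 minus KO day 3, were -1.19 for H2-K1, -1.13 for H2-D1, -1.75 for H2-T3, -1.04 for B2m, -1.95 for Tap1, -2.65 for Psmb8, -2.20 for Psmb9 and -1.66 for Psmb10. In each of the 8 all 3 KO day 4 libraries lay below all 3 KO day 3 libraries. For H2-T3 the KO day 3 value was close to control, and for Tap1 it was the KO day 4 value that overlapped control. Groups of 3 libraries were given no outlier test.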

How the results depend on the processing

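Across the 10 genes, 3 comparisons and 19 alternatives, 497 of 570 values kept direction and side of the threshold, 20 lost a call, 42 gained one and 11 changed sign. The sign changes were of H2-T3 at KO day 3 (-0.33 with library size alone, -0.0017 with voom, -0.0301 without the 2 libraries that stood apart, and -0.0303 to 0.134 when 1 library was left out, lowest without KO day 3 replicate 1), Tapbp at KO day 3 (-0.22 with library size alone, -0.11 to 0.45 when 1 library was left out, lowest without KO day 3 replicate 3), Tap1 at KO day 4 (-1.70 with library size alone, -0.20 with voom, -0.32 without the 2 libraries and -0.32 to 0.48 when 1 was left out, lowest without KO day 4 replicate 3) and Tap2 at KO day 4 (-1.54 with library size alone). Library size counts the mitochondrial reads, and with it the median of all genes moved to -0.39 at KO day 3, -1.95 at KO day 4 and -1.54 between the KO groups.

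Genes called at KO day 3 numbered 59, and 518 with library size alone, 317 without a filter, 876 with DESeq2, 1442 with voom, 337 with 2 groups only, 646 without the 2 libraries and 0 to 345 when 1 library was left out. The count was 0 in edgeR when control replicate 2 or KO day 3 replicate 3 was left out, with 1333 and 1747 genes at an unadjusted p under 0.05. Members called higher there (1) were 2 without a filter, 4 with DESeq2, 6 with voom, 3 with 2 groups only, 6 without the 2 libraries and 0 to 3 when 1 was left out. At KO day 4, 3021 genes became 11057 with library size alone (288 higher and 10769 lower, against 1484 and 1537), and 1588 to 3839 when 1 library was left out. Members called lower (4) became 10 with library size alone, 7 with voom, 7 without the 2 libraries and 2 to 6 when 1 was left out. H2-K1 at KO day 4 lost its call under 8 alternatives (adjusted p up to 0.15). Between the KO groups, 1682 genes became 9508 with library size alone (189 higher, 9319 lower), 2879 with DESeq2, 806 with 2 groups only, and 648 to 1802 when 1 was left out. The causes were not tested.

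The labels do not say if replicate numbers pair the samples. Same-numbered libraries had correlations of their deviations of 0.08 to 0.202 between control and KO day 3, where 3 of 3 pairs matched best. The correlations were -0.029 to -0.018 between control and KO day 4 and -0.065 to 0.019 between the KO groups, where 0 pairs matched best. Pairing of control with KO day 3 libraries was therefore not settled. With the replicate block 9 genes and 0 members were called at KO day 3.

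Of the list genes called, 559 of 738 values stayed called, 170 lost the call and 9 changed sign, all with library size alone: at KO day 4 Jak1 (-1.24), Psmc1 (-1.19), Psmc2 (-1.10), Psmd2 (-1.39), Psmd3 (-1.34), Psmd12 (-1.28) and Adrm1 (-0.77), and between the KO groups Jak1 (-0.77) and Psmc1 (-0.97). Lower nuclear depth at KO day 4 (3115374 to 5614186 counts) limits the low genes, with Tap1, Tap2, Psmb8, Psmb9 and H2-T3 at 30 to 139 counts there.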
